A study of Homo sapiens with 6 samples.

Results

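T98G is an established human glioblastoma line, and its baseline expression was set against that of A172 and U87MG, which are glioblastoma lines too. The members were the 2 T98G arrays of the 6 in the series, chosen by their titles, and the comparison group was the 4 arrays of A172 (2 arrays) and U87MG (2 arrays). In each line, 1 array held RNA of cells given a negative control and 1 that of cells given the microRNA miR338-5p, harvested 24 hours after transfection, and the RNA was hybridised to Affymetrix Human Gene ST arrays. All 6 samples had thus been transfected, so the baseline is that of transfected cells, and the transfection entered every fit as an additive term. The labels give 1 array per line and transfection and name no repeat culture, so p-values measure only the spread between these arrays, and each line stands for itself rather than for a class of tumours.

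Glioblastoma lines differ from each other in the genetic lesions they carry and in how far they have kept the features of glial cells. T98G is known as a line with high MGMT activity; MGMT is the repair enzyme that takes alkyl groups off guanine and thereby protects cells from temozolomide. NRF2, the transcription factor encoded by NFE2L2, drives detoxification and glutathione genes when its inhibitor KEAP1 no longer holds it. The genes known as p53 targets include ones that halt the cell cycle or start cell death.

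Expression values are RMA log2 levels, in which a difference of 1 is a doubling. Arrays of the same line correlated at 0.992 to 0.993 over all 33297 probe sets. T98G arrays correlated with those of the other lines at 0.958 to 0.962, and A172 with U87MG at 0.954 to 0.956. The array medians lay between 5.06 and 5.14. A level of 4.40 or less is called near background here, because 95% of the values of 361 olfactory receptor genes, which are silent in most tissues, lay at or under it. The glioma markers VIM and CD44 were high in all 3 lines: VIM read 11.88 to 12.65 and CD44 read 11.48 to 11.90. GFAP, the astrocyte filament, read 5.07 to 5.39, and S100B, AQP4 and FABP7 were near background on all arrays. SOX9 read 6.54 to 7.36. Other glial markers split the lines: NES read 5.16 and 5.23 in T98G, 7.29 and 7.15 in A172, and 5.51 on both U87MG arrays. SLC1A3 read 6.25 and 6.09 in T98G, 3.85 and 3.95 in A172, and 8.02 and 7.89 in U87MG. PTPRC and AIF1 (leukocytes), MBP and MOG (oligodendrocytes), PECAM1 and VWF (endothelium) and CDH1 and KRT5 (epithelium) were near background on all 6 arrays. Other markers of the same types were not: CD68, a lysosomal protein of macrophages, read 8.29 to 10.40, and the highest array reached 5.34 for SOX10, 4.98 for EPCAM and 4.54 for CDH5. Of the neuron markers, STMN2 was near background on all arrays, whereas the highest array reached 5.28 for RBFOX3, 6.67 for SYT1 and 8.11 for SNAP25.

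Of 13813 genes tested, 330 were higher in T98G (2.39%) and 316 were lower (2.29%), 646 in all (4.68%), at an adjusted p under 0.05 in limma. The differences were often large: a difference of at least 2-fold was seen in 248 genes that were higher and 238 that were lower, and at least 8-fold in 47 and 50. The same fit called 1438 genes for A172 against the rest (10.4%) and 967 for U87MG against the rest (7.00%); the 3 comparisons share all arrays. All 646 genes differed with the same sign in the control arrays and in the miR338-5p arrays, and 645 of them did not overlap between T98G and the other lines. Both counts follow largely from the call, which was made on these same arrays, so they are no separate support. Over all genes tested, both T98G arrays lay above the 4 others for 2765 genes (20.0%) and below them for 2597 (18.8%). At an unadjusted p under 0.05, limma passed 2837 of all genes tested (20.5%), 1466 higher and 1371 lower in T98G. In bulk RNA, a lower level in every cell and fewer cells with the transcript cannot be told apart.

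The fit takes the A172 and U87MG arrays as replicates, so it favours genes on which those lines lie close together. Their median absolute difference was 0.19 over the called genes and 0.34 over all genes tested. A model with the 3 lines as levels therefore asked of each line by itself. T98G was higher than A172 and higher than U87MG, each with an adjusted p under 0.05, for 1664 genes (12.0%), and lower than both for 1606 genes (11.6%). All 646 genes were among them, and this broader rule is called apart from both lines below. The calls of the main fit depended on every array: leaving out 1 array of A172 or U87MG left 58 to 76 higher and 64 to 74 lower genes. The calls rest on having 2 arrays of T98G: without the control array of T98G or without its miR338-5p array limma called 0 genes, with 1032 and 1106 at an unadjusted p under 0.05. With the line as a random block 35 genes were higher and 44 lower, and with 1 mean per line 0 passed limma, with 611 at an unadjusted p under 0.05.

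**Figure D1:**
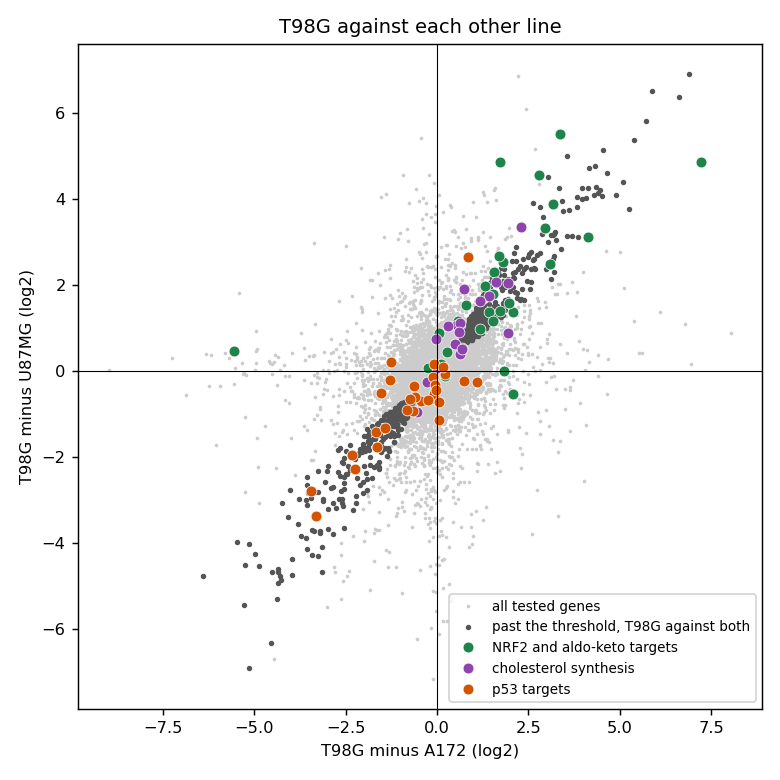
Difference of T98G from A172 (horizontal axis, log2) against its difference from U87MG (vertical axis, log2) for each of the 13813 genes tested; grey points are all genes, dark points the 646 past the threshold, and coloured points the tested members of 3 gene lists. The dark points lie near the diagonal, NRF2 and aldo-keto genes lie mostly at the upper right, and p53 targets mostly at the lower left.

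The 5 marker genes of the line were all higher in T98G, and 4 of them were far apart. CDH6, a cell-cell adhesion cadherin, read 10.33 and 10.73 in T98G (control, then miR338-5p), 3.63 and 3.67 in A172, and 3.58 and 3.65 in U87MG. GABRA2, a subunit of the inhibitory GABA-A receptor, read 9.34 and 9.79 in T98G, and between 2.92 and 3.34 on the 4 arrays of A172 and U87MG. Both genes were near background on all 4 other arrays, so their folds are bounds: at least 70.0-fold for CDH6 (difference 6.89 ± 0.13, SE; adjusted p = 0.00167 in limma) and at least 36.0-fold for GABRA2 (difference 6.49 ± 0.21; adjusted p = 0.00256). IGFBP5, which binds insulin-like growth factors, read 10.97 and 10.76 in T98G, 4.83 and 5.14 in A172, and 4.41 and 4.27 in U87MG. Its T98G level was the higher by 6.20 ± 0.30 (adjusted p = 0.00391 in limma), with 1 U87MG array near background.

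AKR1B10, an aldo-keto reductase that reduces aldehydes and retinal, was the marker on which the other lines differed most. It read 11.44 and 11.37 in T98G, 4.16 and 4.21 in A172, and 6.63 and 6.45 in U87MG. T98G was thus above both, by 7.22 over A172, which was near background, and by 4.87 over U87MG (6.04 ± 0.95 over both together; adjusted p = 0.0446 in limma, 0.0622 with the line as a random block). Its neighbour AKR1B15 is a close copy, and probe sets may not separate them. MGMT showed the smallest difference of the markers. It read 6.14 and 6.02 in T98G, 5.11 and 5.07 in A172, and 5.15 and 4.88 in U87MG. The groups did not overlap, all levels were above background, and T98G was 2.04-fold higher (difference 1.03 ± 0.12; adjusted p = 0.0215 in limma, 0.321 with the line as a random block). No other member of the 9 tested alkylation repair genes passed. Limma passed 0 of 6 mismatch repair genes, with 1 at an unadjusted p under 0.05, against 20.5% of all genes.

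Next to the markers, the genes with the largest differences upward were led by PI15 and CXCL12. PI15, a secreted peptidase inhibitor, read 8.81 and 8.37 in T98G and 2.70 to 2.98 on the other arrays. CXCL12, the chemokine ligand of CXCR4, read 9.00 and 8.67 in T98G and 3.35 to 3.57 on the others. Both were near background in A172 and U87MG, with bounds of at least 18.3-fold and at least 21.7-fold (adjusted p = 0.00256 for each in limma). LAPTM5, a lysosomal membrane protein best known from blood cells, read 9.48 and 9.13 in T98G, 4.15 and 4.32 in A172, and 5.09 and 4.70 in U87MG (adjusted p = 0.00675 in limma). The leukocyte markers PTPRC and AIF1 were near background in T98G, at 2.66 to 3.17, and CD68 read 8.34 on both T98G arrays. Of 7 tested leukocyte markers LAPTM5 was the 1 called. Of the 7 differences, 2 were positive and 5 negative, with a median of -0.07. The mean level of 11 such markers was 4.91 and 4.95 in T98G and 4.66 to 4.76 elsewhere. That mean holds LAPTM5 itself, so it does not describe the other markers. Their part in this result was not tested. PDE5A, the cyclic GMP phosphodiesterase, read 10.29 and 10.44 in T98G and 5.60 to 5.90 elsewhere, a 24.8-fold difference between levels that all lay above background (adjusted p = 0.00256 in limma).

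The others of the 15 were CYP4F11, a fatty acid hydroxylase (difference 4.84), IQGAP2, a scaffold of the cytoskeleton (4.54), TSPAN7, a tetraspanin (4.52), KCNE4, an accessory subunit of potassium channels (4.49), SLPI, a secreted inhibitor of leukocyte proteases (4.45), MPPED2 (4.33) and GLDN, gliomedin, known from the nodes of Ranvier (4.32). IQGAP2, MPPED2 and GLDN were near background on all 4 other arrays. The T98G arrays themselves lay apart for TSPAN7, at 10.29 in the control and 9.08 with miR338-5p, and for MPPED2, at 8.23 and 7.33. Of the 15 genes, 12 kept an adjusted p under 0.05 with the line as a random block; AKR1B10, TSPAN7 (0.193) and MPPED2 (0.0750) did not. Among all 330 higher genes, 38 were near background in both other lines. A gene silent in A172 and U87MG could also miss the filter on dim genes: of 216 list genes under it, ALDH1A1, MTAP, TRPA1 and CLIC2 were above background on both T98G arrays and near it on the 4 others.

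**Figure D2:**
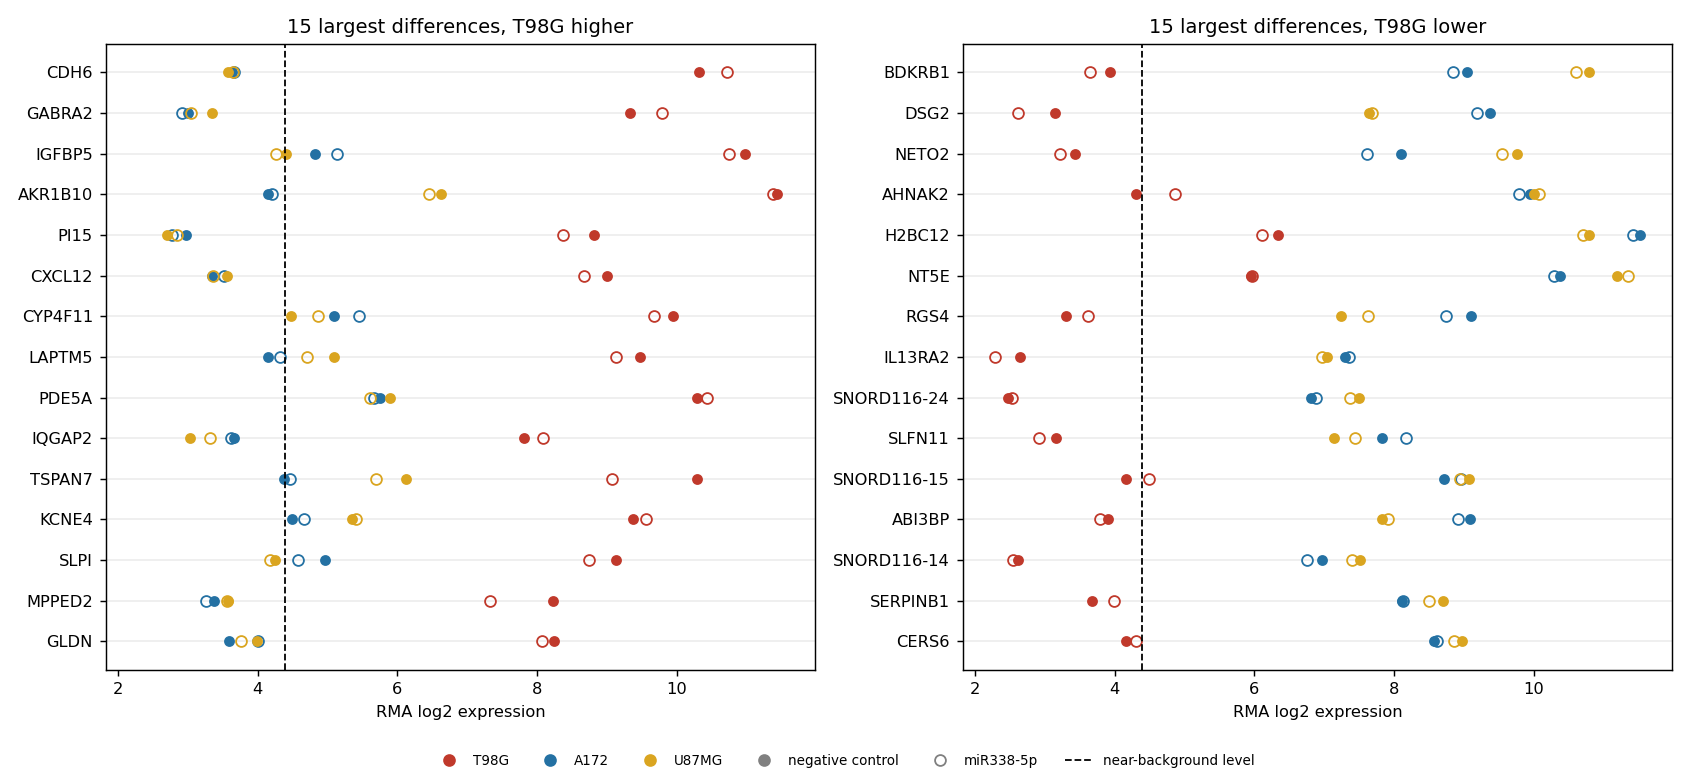
RMA log2 level (horizontal axis) on each of the 6 arrays for the 15 genes with the largest difference upward in T98G (left) and the 15 with the largest difference downward (right); colour gives the line, filled points the negative control, open points miR338-5p, and the dashed line the near-background level of 4.40. For every gene shown, both T98G arrays lie on the same side of the 4 others.

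The largest difference downward was that of BDKRB1, a bradykinin receptor. It read 3.93 and 3.65 in T98G, 9.04 and 8.84 in A172, and 10.80 and 10.60 in U87MG. DSG2, the desmosomal cadherin desmoglein, read 3.15 and 2.62 in T98G, 9.38 and 9.19 in A172, and 7.65 and 7.68 in U87MG. Both were near background in T98G and well above it in the other lines, at least 42.9-fold lower for BDKRB1 (adjusted p = 0.0244 in limma) and at least 16.9-fold lower for DSG2 (adjusted p = 0.0245). AHNAK2, a large scaffold protein, read 4.31 and 4.87 in T98G and 9.79 to 10.07 on the others. Its A172 and U87MG levels were almost equal, and T98G was lower by 5.36 ± 0.19 (SE; adjusted p = 0.00256 in limma).

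NT5E, the ecto-enzyme CD73 that makes adenosine outside the cell, stayed measurable in T98G: it read 5.96 on both arrays there, 10.38 and 10.29 in A172, and 11.19 and 11.36 in U87MG. It was 28.7-fold lower (adjusted p = 0.0108 in limma). IL13RA2, the decoy receptor of interleukin-13 and a known glioblastoma surface antigen, read 2.65 and 2.29 in T98G, 7.29 and 7.36 in A172, and 7.04 and 6.97 in U87MG. SLFN11, which sensitises cells to DNA-damaging drugs, read 3.15 and 2.92 in T98G, 7.83 and 8.17 in A172, and 7.15 and 7.44 in U87MG. Both were near background in T98G, at least 6.82-fold lower for IL13RA2 (adjusted p = 0.00278 in limma) and at least 9.51-fold lower for SLFN11 (adjusted p = 0.00861). The remaining genes of the 15 were NETO2, H2BC12, RGS4, ABI3BP, SERPINB1, CERS6 and the small nucleolar RNAs SNORD116-24, SNORD116-15 and SNORD116-14, with differences from -5.43 for NETO2 to -4.52 for CERS6. Except for H2BC12 and SNORD116-15, these genes were near background on both T98G arrays, so their folds are bounds. They were lower at least 20.5-fold for NETO2 and for CERS6, 13.8-fold for RGS4, 16.4-fold for ABI3BP and 15.6-fold for SERPINB1. The bounds were 6.71-fold for SNORD116-24 and 6.77-fold for SNORD116-14. SNORD116-15 had 1 T98G array near background. H2BC12 is a histone gene with near-identical copies, so its level may hold signal of others. Among all 316 lower genes, 67 were near background in T98G, as were 526 of the 13813 genes tested. A gene under 4.28 in T98G could pass the filter on dim genes only through its level in A172 and U87MG. Of the 15 largest differences downward, 14 kept an adjusted p under 0.05 with the line as a random block, RGS4 (0.0900) being the exception.

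Apart from the 5 markers, NRF2 and aldo-keto targets had the highest median difference of the gene lists with at least 5 tested members, and 12 of 31 tested members were higher in T98G and 0 lower, against 2.39% and 2.29% of all genes; at an unadjusted p under 0.05 in limma, 22 were higher and 0 lower. Without AKR1B10, which was given as a marker of the line, the count was 11 of 30. The median difference was 1.56, or 1.55 over A172 and 1.40 over U87MG, where the median over all genes was 0.00. Under the rule that asks of each line by itself, 22 of 31 were higher than both and 0 were lower than both, against 12.0% and 11.6% of all genes. The list was drawn up with earlier results of these data known, so its count is a description.

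GCLC and GCLM encode the catalytic and the modifier subunit of the enzyme that starts glutathione synthesis. GCLC read 10.80 and 10.84 in T98G, 6.66 and 6.74 in A172, and 7.74 and 7.65 in U87MG (difference 3.62; adjusted p = 0.0215 in limma). GCLM was higher by 2.79, SLC7A11, the cystine importer, by 2.17, and GSR, which regenerates glutathione, by 1.56. In these 4 genes every T98G level lay above every other, whereas GSTM3, a glutathione transferase, did not pass (3.30; adjusted p = 0.252) and GPX2, a glutathione peroxidase, was near background on all arrays. The carbonyl and epoxide enzymes were higher too: AKR1C1 read 12.58 and 12.72 in T98G, 9.51 and 9.47 in A172, and 8.70 and 8.82 in U87MG (adjusted p = 0.0133 in limma), and EPHX1, the microsomal epoxide hydrolase, read 10.20 and 10.14 in T98G and 6.81 to 7.24 elsewhere (adjusted p = 0.00548). ALDH3A1, an aldehyde dehydrogenase outside this list, was the called member of the 14 tested in its family, with 7.57 on both T98G arrays and 4.74 to 5.09 elsewhere (adjusted p = 0.0052 in limma). ALDH1A1, a retinal-oxidising enzyme of that family, fell below the filter on dim genes through its level in the other lines: it read 7.29 and 6.96 in T98G and 2.25 to 2.86 elsewhere (adjusted p = 0.00232 in limma without the filter).

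Among the other higher members were PGD of the pentose phosphate pathway, by 1.78, TKT of the same pathway, by 1.07, and UGDH, which makes UDP-glucuronate, by 1.67. FTL, the ferritin light chain, was higher by 1.35. NFE2L2 itself read 10.82 and 10.79 in T98G and 9.39 to 9.45 on the other arrays, 2.64-fold higher (adjusted p = 0.00925 in limma), whereas KEAP1 differed by -0.09 (adjusted p = 0.841). Several members had large differences that missed the threshold, with A172 and U87MG far apart. AKR1C2 read 11.87 and 11.90 in T98G, 8.66 and 8.37 in A172, and 6.34 and 6.39 in U87MG (adjusted p = 0.0695 in limma); AKR1C1 and AKR1C2 are near-identical, so their levels may mix. AKR1C3 differed by 3.68 (0.0706), NQO1 by 1.72 (0.0575) and SRXN1 by 2.18 (0.0638), and all 4 were apart from both lines. ME1, which makes NADPH, did not follow: it read 3.66 and 3.35 in T98G, 2.96 and 3.09 in U87MG, and 9.13 and 8.99 in A172. With the line as a random block, GCLC, AKR1C1 and EPHX1 kept an adjusted p under 0.05 (0.0357, 0.0275 and 0.0193).

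The core of the antioxidant response element, to which NRF2 binds with small MAF proteins, was searched on both strands as TGACNNNGC in the 250 bases before each start site, from RefSeq promoters on GRCh38.p14. Promoters were matched for 24 of the 31 tested members, and 6 of them carried the letters, against 3013 of 27305 promoters in all and 12.2% of those of genes tested. Of the 9 higher members with a promoter, 2 did, GCLM and PGD. These are shown with 40 bases on each side where the window allowed, each on its gene's strand, with the matched letters in capitals; both matches are of the reverse complement.
GCLM, chr1:93909431-93909504, minus strand: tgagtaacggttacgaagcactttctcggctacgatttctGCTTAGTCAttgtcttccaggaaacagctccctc
PGD, chr1:10398823-10398911, plus strand: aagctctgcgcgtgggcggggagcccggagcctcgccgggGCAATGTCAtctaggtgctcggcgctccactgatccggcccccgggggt
A match is a description of the letters in this window, and the other called members may carry such letters farther away.

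**Figure D3:**
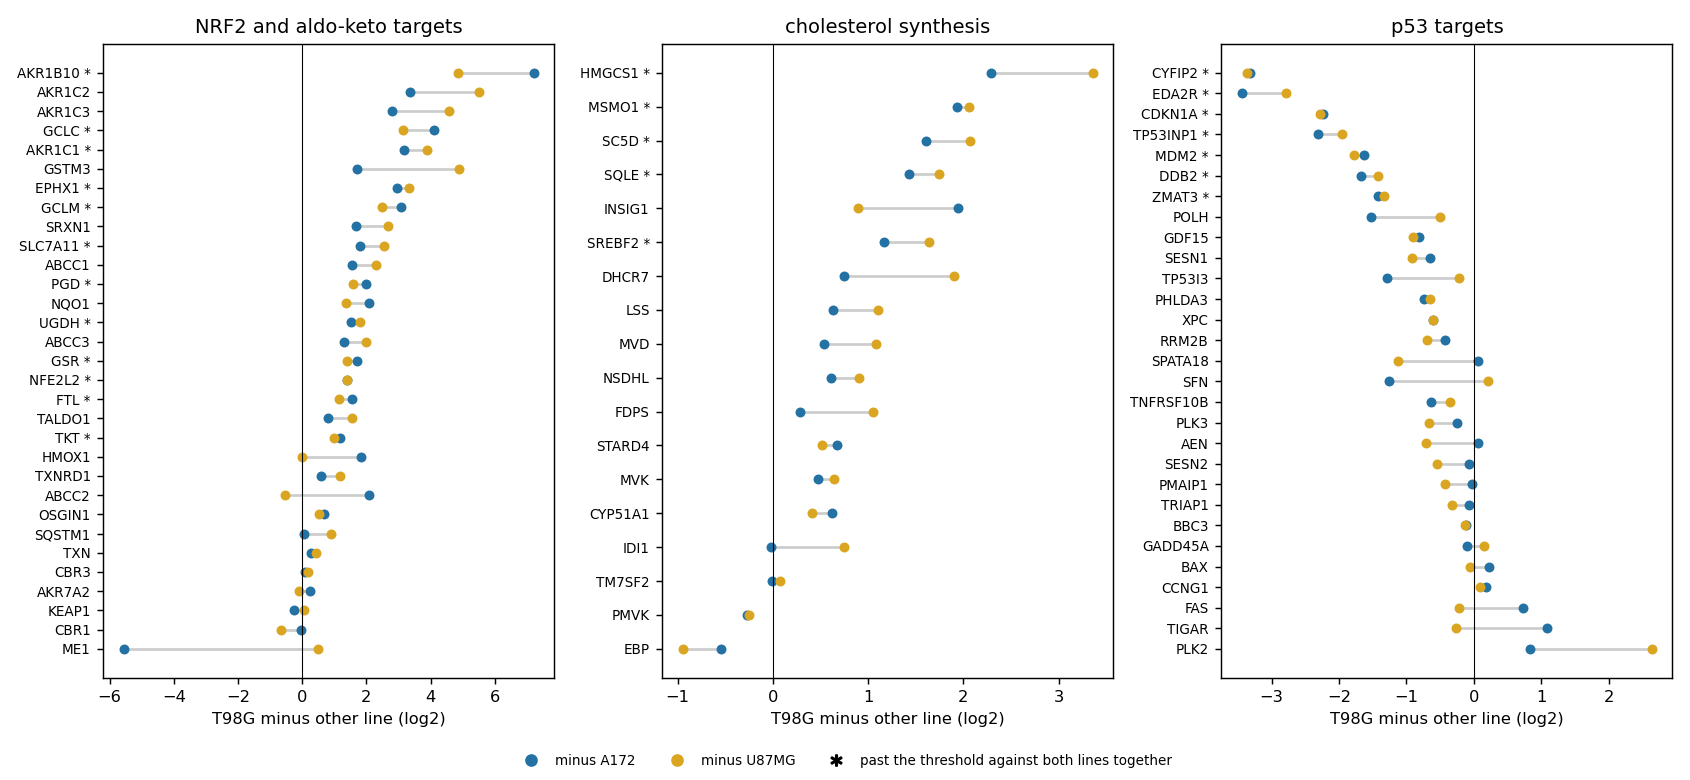
Difference of T98G from A172 (blue) and from U87MG (yellow), in log2 on the horizontal axis, for each tested member of 3 gene lists, ordered by the difference from both lines together; an asterisk marks the genes past the threshold. NRF2 and aldo-keto targets and cholesterol genes lie mostly right of 0, and p53 targets mostly left of 0, with PLK2 and ME1 as members that lie far on the other side from at least 1 line.

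Cholesterol synthesis genes were the group with the next highest median difference, 0.78. Of 18 tested members, 5 were higher in T98G (27.8%) and 0 lower (13 and 1 at an unadjusted p under 0.05 in limma), against 2.39% and 2.29% of all genes. Of the 18, 14 were higher than both lines and 1 lower than both, against 12.0% and 11.6%. HMGCS1, which makes the HMG-CoA that the pathway starts from, read 9.86 and 9.58 in T98G, 7.63 and 7.23 in A172, and 6.50 and 6.22 in U87MG (7.08-fold; adjusted p = 0.0443 in limma). MSMO1, a methylsterol oxidase, read 10.51 and 10.47 in T98G and 8.33 to 8.68 on the other arrays (adjusted p = 0.00609 in limma). SC5D, a late desaturase, was higher by 1.84, SQLE, the squalene epoxidase, by 1.59, and SREBF2, the transcription factor of the pathway, by 1.40 (adjusted p = 0.0465 in limma). EBP was the member lower than both lines, by 0.75 on the log2 scale, without passing the main test (adjusted p = 0.118 in limma). The 5 calls were lost with the line as a random block; for MSMO1 the adjusted p was then 0.0653.

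ABCA1, which exports cholesterol to apolipoproteins, was lower. It read 4.33 and 3.89 in T98G, 8.25 and 7.93 in A172, and 9.01 and 8.73 in U87MG. Both T98G levels were near background, and the fitted difference was -4.36 ± 0.33 (adjusted p = 0.00945 in limma, 0.0157 with the line as a random block). The sterol regulatory element was searched as TCACNCCAC on both strands of the same windows. It was found in 1 of 17 promoters of the list (5.88%), against 0.875% of 27305 promoters, and that promoter was of SREBF2, a higher gene.
SREBF2, chr22:41832932-41833020, plus strand: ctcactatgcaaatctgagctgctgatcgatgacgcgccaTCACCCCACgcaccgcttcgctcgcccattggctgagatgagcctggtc

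Of 29 tested p53 target genes 7 were lower in T98G (24.1%, against 2.29% of all genes), 0 were higher and 22 did not pass, with a median difference of -0.53; at an unadjusted p under 0.05 in limma, 13 were lower and 0 higher. Of the 29, 14 were lower than both lines, against 11.6% of all genes, and 1 was higher than both. With the line as a random block CYFIP2 kept its call (adjusted p = 0.0153), and it was lost for EDA2R (0.0592), CDKN1A (0.334) and TP53INP1 (0.546). CYFIP2 read 3.82 and 3.96 in T98G, where it was near background, and 7.16 to 7.27 on the other arrays (adjusted p = 0.00256 in limma). EDA2R, a death receptor of the TNF family, read 4.32 and 4.71 in T98G, 7.95 and 7.96 in A172, and 7.30 and 7.31 in U87MG (adjusted p = 0.0156). CDKN1A, the cyclin-dependent kinase inhibitor p21, read 5.92 and 5.65 in T98G, 7.90 and 8.14 in A172, and 7.73 and 8.42 in U87MG (4.80-fold lower; adjusted p = 0.0158 in limma). MDM2, a ubiquitin ligase, read 7.84 and 7.87 in T98G and 9.35 to 9.65 elsewhere (adjusted p = 0.0105 in limma). In all 4 genes the groups did not overlap.

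TP53INP1 (-2.13), DDB2, a damage recognition factor (-1.55), and ZMAT3 (-1.38) completed the 7. BAX, BBC3, GADD45A and CCNG1, which are p53 targets too, differed from both lines together by -0.13 to 0.14 and did not pass, and PLK2 was the member higher than both. Among the cyclin-dependent kinase inhibitors and G1 regulators 2 of 19 were lower, CDKN1A and CCND1, cyclin D1 (-1.92, adjusted p = 0.0412 in limma), against 2.29% of all genes. Of the 19, 5 were lower and 2 higher than both lines, against 11.6% and 12.0%. Limma passed 0 of 32 G2/M and mitosis genes, with 5 at an unadjusted p under 0.05, against 20.5% of all genes. Their median was -0.07. CDKN2A read 4.20 to 4.93 over all 6 arrays.

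Adhesion and matrix genes differed in both directions, gene by gene. Of 18 tested immunoglobulin-type and other adhesion molecules, 3 were higher and 4 lower, against 2.39% and 2.29% of all genes. Of the 18, 3 were higher and 7 lower than both lines, against 12.0% and 11.6%. NRCAM, a neuronal adhesion molecule, read 7.14 and 7.30 in T98G and 2.73 to 3.18 on the others (adjusted p = 0.00256 in limma), and NCAM1 read 3.73 and 3.41 in T98G, 6.74 and 6.67 in A172, and 7.60 and 7.75 in U87MG (adjusted p = 0.0215). The neural adhesion molecules NRCAM and NCAM1 were thus near background in opposite groups. VCAM1 was higher by 3.25 and CADM1 by 1.85, and the junctional molecule JAM3 and NFASC were lower by 1.03 and 1.72 and JAM2, near background in T98G, at least 3.20-fold. NRCAM kept its call with the line as a random block (adjusted p = 0.0153), and NCAM1 (0.0597), VCAM1 (0.118) and JAM2 (0.0668) lost it. CDH6 was the only one of 12 tested cadherins and catenins past the threshold; N-cadherin (CDH2) read 9.25 and 9.46 in T98G, 8.78 and 9.15 in U87MG, and 11.54 and 11.57 in A172. Of 17 protocadherins, PCDH18 (2.53) and PCDHB2 (1.39) were higher and 0 lower, against 2.39% and 2.29% of all genes. Of the 17, 3 were higher and 4 lower than both lines, against 12.0% and 11.6%. PCDHB2 has near-identical copies.

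Of 17 integrins 3 were lower and 0 higher, against 2.29% and 2.39% of all genes: ITGA5, the fibronectin receptor chain (-1.93), ITGA3 (-1.23) and ITGB5 (-0.81). At an unadjusted p under 0.05 in limma, 5 were lower and 2 higher. The family split, with 10 of 17 differences positive and a median of 0.07. Of the 17, 5 were lower and 4 higher than both lines, against 11.6% and 12.0% of all genes. For ITGA5, ITGA3 and ITGB5 the adjusted p in limma with the line as a random block was 0.167, 0.273 and 0.474, so the calls were lost. Of 27 other matrix proteins 3 were lower and 0 higher, against 2.29% and 2.39% of all genes. Of the 27, 6 were lower and 2 higher than both lines, against 11.6% and 12.0%. The 3 were led by FBN1, fibrillin, at 6.56 and 6.74 in T98G, 10.17 and 10.20 in A172, and 9.31 and 9.65 in U87MG (adjusted p = 0.0156 in limma). FBN2 and EFEMP1 were the others. Laminins split: of 17 laminin and basement membrane genes 1 was higher and 2 lower, against 2.39% and 2.29% of all genes. LAMB3 was higher by 1.38, and LAMA1 and LAMA2, near background in T98G, were lower at least 2.25-fold and 2.09-fold. Of 20 collagens 1, COL8A1, was lower, at least 1.69-fold, and 0 higher, and 2 were higher and 2 lower than both lines. Among 36 lysyl oxidases and matrix proteases 2 were higher and 4 lower, against 2.39% and 2.29% of all genes. Of the 36, 4 were higher and 9 lower than both lines, against 12.0% and 11.6%. MMP13, a collagenase, read 8.00 and 8.37 in T98G, 4.36 and 4.91 in A172, and 3.18 on both U87MG arrays. TIMP3, a protease inhibitor, was higher by 2.07, and MMP16, near background in T98G, was lower at least 5.12-fold. Of 29 mesenchymal subtype genes 3 were lower and 0 higher, against 2.29% and 2.39% of all genes. The 3 were IL13RA2 and the transcription factors PRRX1 (at least 11.4-fold, near background in T98G) and ZEB2 (-2.22). The list was split, with 15 positive and 14 negative differences. Of the 29, 8 were lower and 6 higher than both lines, against 11.6% and 12.0%. The list's median changed sign with the scaling of the arrays. The mean level of 14 smooth muscle and fibroblast markers was 5.52 and 5.63 in T98G, 7.37 and 7.36 in A172, and 6.14 and 6.20 in U87MG. None was near background on all arrays. Of the 14, 2 were lower, MYL9 (-1.70) and LRRC15 (-2.79), and 0 higher, against 2.29% and 2.39% of all genes. The list's median difference was -1.48, with 6 lower and 1 higher than both lines, against 11.6% and 12.0%. ACTA2 and TAGLN differed by -1.55 and -1.78, and the fibroblast and pericyte markers PDGFRB and THY1 by 1.42 and 1.82, none past the threshold. The part of these markers in the matrix result was not tested.

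Of 22 cytokines and chemokines 3 were higher and 0 lower, against 2.39% and 2.29% of all genes, and the list median was -0.06: CXCL12, CSF1, the macrophage growth factor (1.98), and CCL2, the monocyte chemokine. CCL2 read 10.11 and 10.12 in T98G, 7.51 and 7.08 in A172, and 6.46 and 6.13 in U87MG (adjusted p = 0.0284 in limma). CXCL12 kept its call when the line was a random block, and CSF1 (adjusted p = 0.0633) and CCL2 (adjusted p = 0.0782) lost it. Of 21 cytokine receptors, TNFRSF11B, the decoy receptor osteoprotegerin (3.78), and IL6ST, the shared chain gp130 (1.16), were higher and IL13RA2 lower, against 2.39% and 2.29% of all genes. Of the 21, 5 were higher and 3 lower than both lines, against 12.0% and 11.6%. Of 38 interferon response genes 4 were higher and 1 lower, against 2.39% and 2.29% of all genes. Of the 38, 6 were higher and 2 lower than both lines (15.8% and 5.26%), against 12.0% and 11.6% of all genes. The list median was -0.10 against A172 and 0.51 against U87MG. BST2, tetherin, read 7.56 and 7.59 in T98G, 3.78 and 4.68 in A172, and 3.28 and 3.37 in U87MG (adjusted p = 0.0210 in limma). XAF1 (3.49), IFIH1 (1.92) and GBP3, near background on the 4 other arrays and at least 6.83-fold higher, were the other higher genes and HERC5 the lower (-1.85); their A172 levels with miR338-5p lay above those of its control, for XAF1 at 5.42 against 4.16. The 4 higher genes lost their calls with the line as a random block, with adjusted p = 0.137 for BST2, 0.303 for XAF1, 0.109 for GBP3 and 0.474 for IFIH1. In antigen processing TAP2 alone of 12 class I genes passed (0.88), and limma passed 0 of 5 class II genes, with 0 also at an unadjusted p under 0.05.

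Receptor and growth factor families contributed few genes each. GABRA2 and GABRE were the higher genes among 6 tested GABA-A subunits, with 8 more below the filter on dim genes. Both passed that filter through their T98G level, so this is not a count over the family. Without GABRA2, which was given as a marker of the line, 1 of 5 was higher, against 2.39% of all genes. GABRE read 7.78 and 7.63 in T98G and 3.39 to 4.07 on the others, which were near background (adjusted p = 0.00542 in limma). Of 9 genes of GABA synthesis and transport 2 were lower and 0 higher, against 2.29% and 2.39% of all genes. The 2 were GPHN, the receptor scaffold gephyrin, by 1.91 and GAD1, which makes GABA, by 1.38. The same 2 were lower than both lines and 1 other was higher than both, against 11.6% and 12.0% of all genes. GABRE (adjusted p = 0.0900), GPHN (0.294) and GAD1 (0.374) lost their calls with the line as a random block. In the IGF system IGFBP5 and IGFBP4 (1.63, adjusted p = 0.0323 in limma) were higher of 17 tested. Of the 17, 7 were higher and 3 lower than both lines, against 12.0% and 11.6% of all genes. Without the marker IGFBP5, 1 of 16 was higher, against 2.39%, and 6 were higher and 3 lower than both lines. Of 32 hypoxia and glycolysis genes 3 were higher and 0 lower, against 2.39% and 2.29% of all genes: EGLN3, an oxygen sensor (2.49), SLC2A1, the glucose transporter GLUT1 (2.10), and ADM, adrenomedullin (1.98), and 11 were higher and 1 lower than both lines, against 12.0% and 11.6% of all genes. The 3 calls were lost with the line as a random block, with adjusted p = 0.181 for EGLN3, 0.154 for SLC2A1 and 0.243 for ADM.

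**Figure D4:**
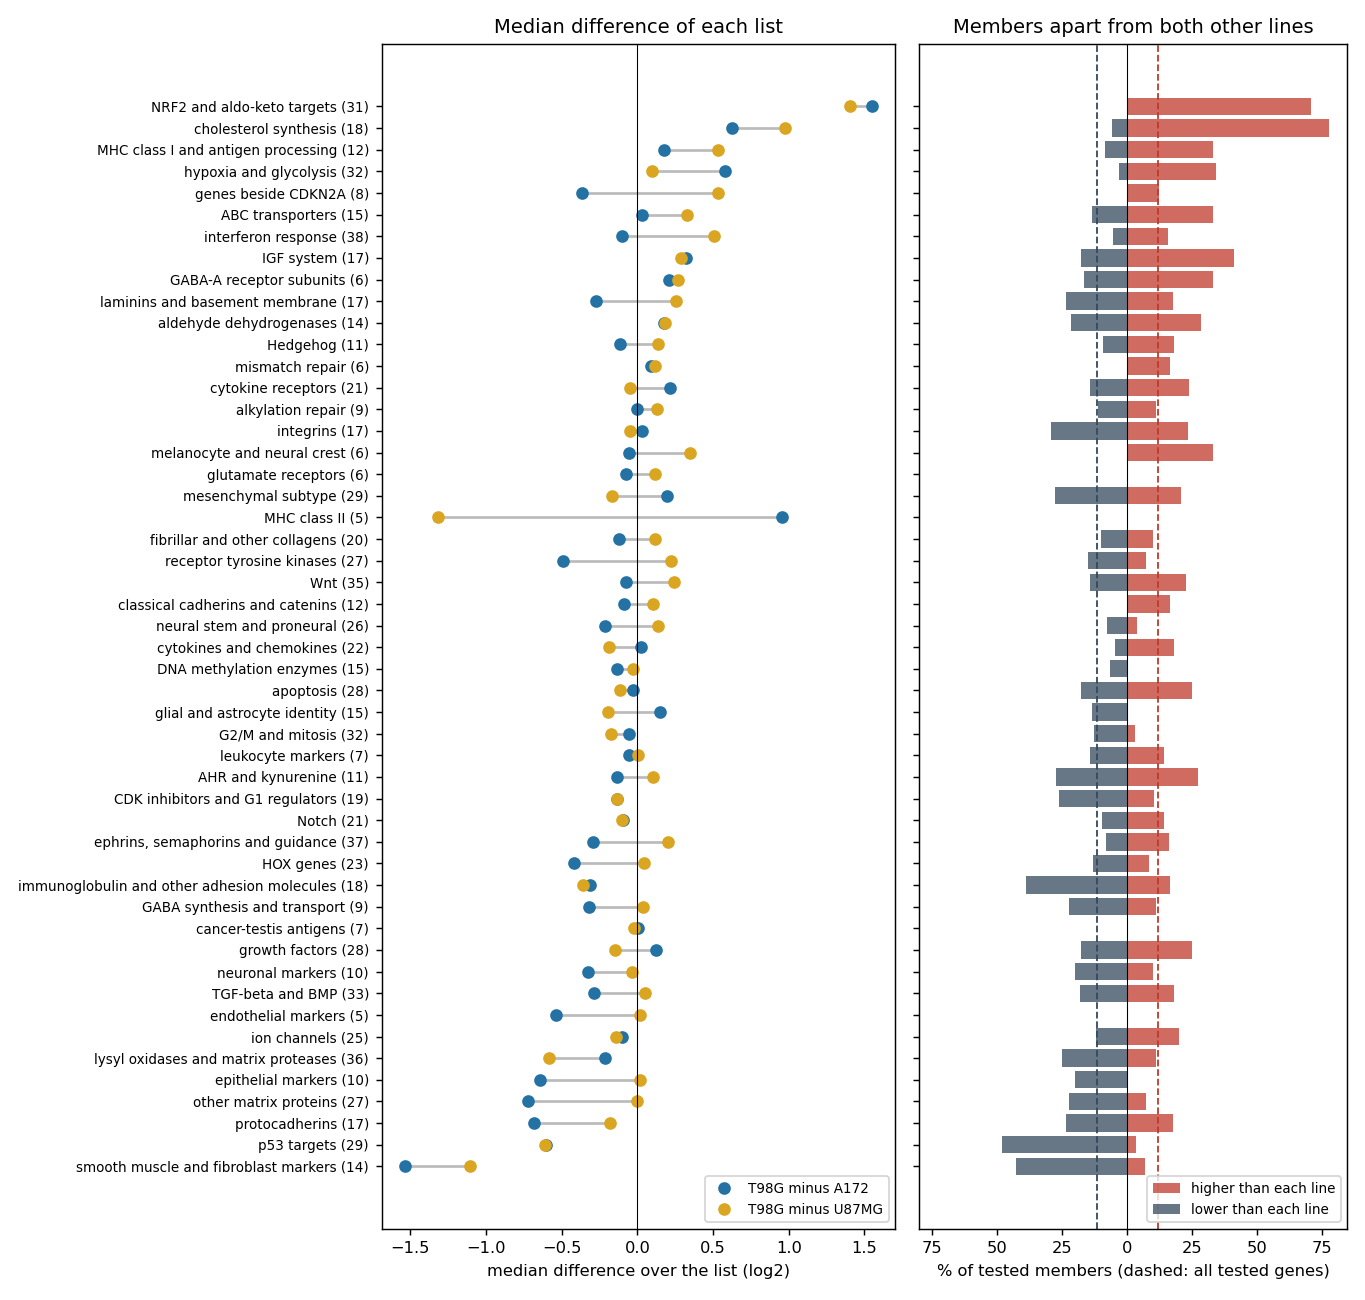
Median difference of T98G from A172 (blue) and U87MG (yellow), in log2, for each gene list with at least 5 tested members (left; the number tested in parentheses), and the percentage of tested members higher (red) or lower (grey) than each of the other lines (right), with dashed lines at 12.0% and 11.6%, the shares over all genes. NRF2 and aldo-keto targets and cholesterol synthesis stand at the top, and p53 targets and smooth muscle and fibroblast markers at the bottom.

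The small nucleolar RNAs of the SNORD116 cluster, an imprinted tandem array expressed from the paternal chromosome, were at or close to background in T98G. Of 20 named copies 4 passed the filter on dim genes, and all 4 were lower in T98G. SNORD116-24 read 2.47 and 2.53 in T98G, 6.81 and 6.89 in A172, and 7.50 and 7.38 in U87MG (adjusted p = 0.00535 in limma). SNORD116-15 read 4.16 and 4.49 in T98G and 8.71 to 9.07 elsewhere, SNORD116-14 read 2.62 and 2.54 against 6.75 to 7.51, and SNORD116-20 read 3.23 and 3.61 against 6.81 to 7.66. The other 16 copies lay below the filter, which a copy passed through its level in A172 and U87MG, so these 4 are not a count over the cluster; 19 of the 20 were near background in T98G, and those 16 were near background in A172 and U87MG too, at 3.75 or less. The copies are near-identical, and their probe sets may read each other. Genes near the cluster did not pass: UBE3A differed by 0.44 (adjusted p = 0.295 in limma) and MKRN3 by 0.30 (0.319).

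Genes higher in T98G also lay next to each other. Tested genes were put in RefSeq order along each chromosome, and the median difference was taken over every 15 neighbours, 13466 windows in all; the central 95% of the windows lay between -0.45 and 0.62. Of the 5 windows with the highest medians that did not overlap, 4 fell in 2 stretches, which were chosen after these values were seen and are described without a test; the other, from ZNF616 to ZNF816, had a median of 0.04 against A172 and 2.16 against U87MG. From CCN1 to CNN3, 20 of 42 tested genes were higher in T98G (47.6%) and 0 lower, 33 were higher than both lines, against 2.39%, 2.29% and 12.0% of all genes, and the median difference was 1.14. The 40 tested genes before it had a median of 0.75, and the 40 after it 0.02. From MED17 to CARD16, 12 of 33 tested genes were higher (36.4%) and 0 lower, with a median of 1.02, and the 40 genes on either side had medians of 0.51 and 0.81.

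Several genes named above belong to these stretches. GCLM (2.79), GBP3 (3.20) and ABCD3, a peroxisomal transporter (1.41), lie between CCN1 and CNN3, as does GBP4 (3.68), which resembles GBP3 in sequence and was near background on the 4 other arrays too. MMP13 (4.28), CASP4, an inflammatory caspase (1.70), and BIRC2, an inhibitor of apoptosis (1.30), lie between MED17 and CARD16, beside MRE11, a double-strand break nuclease (1.12). GCLM, GBP3, GBP4 and MMP13 thus exceeded their stretch's median by more than 1, and the other 4 were within 1 of it. The part of the neighbourhood in these differences was not tested.

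**Figure D5:**
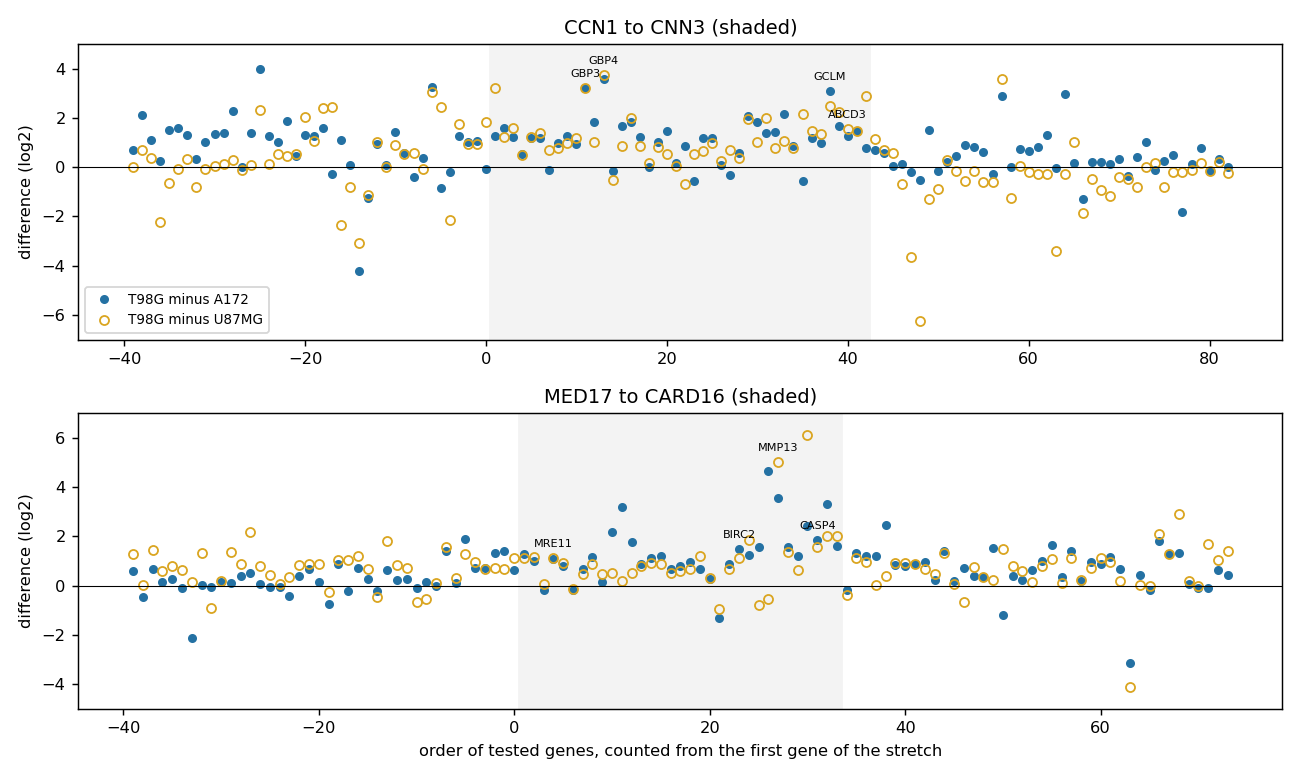
Difference of T98G from A172 (blue) and from U87MG (yellow), in log2 on the vertical axis, for tested genes in RefSeq order along the chromosome (horizontal axis, counted from the first gene of the stretch), for the stretches from CCN1 to CNN3 (upper) and from MED17 to CARD16 (lower). Within the shaded stretches most points lie above 0 against both lines.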

How the data were processed

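The authors' deposited table holds log2 expression per probe set for 6 arrays; per the submitters' processing notes it was made with RMA (background correction, quantile normalization and summarisation of probes) in oligo and R 3.0.1. RMA compresses differences close to background. The genome build is not given in the sources used here. Of 33297 probe sets, 19460 carried 1 gene symbol, 1754 several and 12083 none in the platform table; 19429 of the first matched RefSeq. The brightest probe set was kept for each of 18417 genes, and the lowest 25% by mean level (under 4.28) were left out, which left 13813. limma 3.58.1 in R 4.3.3 fitted T98G against A172 and U87MG with transfection as an additive term (3 residual degrees of freedom). Tests were two-sided, with Benjamini-Hochberg adjustment over all genes tested. The fit was run on simulated data in which A172 and U87MG did not differ. That run therefore does not cover the difference between these lines, which the residual of the real fit holds. Folds given as "at least" set each near-background value to 4.40. Named are the 5 markers, the 15 largest differences in each direction among called genes that do not overlap, and up to 4 called members of each of 52 lists; other members are named for their role, seen after their values. The members and lists were chosen with earlier results of these data known. Alternatives changed the model, arrays, filter, probe sets, variance prior and normalization. The number of arrays limits the precision.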

Additional observations from a re-analysis of the deposited data

How the results depend on the processing

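Counts below are genes higher, then lower, in T98G, where the values reported were 330 and 316. Models that take the difference between A172 and U87MG out of the residual called many more: 3334 and 3335 with the 3 lines as levels, 3378 and 3311 without the U87MG arrays, and 3187 and 3150 without the A172 arrays, the reported genes being among them each time. Dropping the transfection term gave 648 and 596, of which 325 and 306 were shared. Leaving out 1 array gave 0 to 76 higher and 0 to 74 lower genes; the 0 came from leaving out either T98G array (496 higher and 536 lower at an unadjusted p under 0.05 without the control, 606 and 500 without miR338-5p). The line as a random block gave 35 and 44, and 1 mean per line gave 0 and 0 in limma (315 and 296 unadjusted). Filters on dim genes, the probe sets, the variance prior, the normalization and a minimum difference of 1 kept both counts within 1.5 times, at 247 to 358 and 238 to 343. Of 106 named genes none reversed; 36 kept their call with the random block, 0 without either T98G array or with line means, 99 with arrays centred on medians (CCND1, EFEMP1, ITGA5, ITGB5, LAMA1, MAP2 and PRRX1 lost it) and 104 after repeated quantile normalization (HMGCS1 and LAMA1 lost it). Medians of 3 of 52 lists changed sign with the scaling: collagens, mesenchymal subtype and receptor tyrosine kinases. No paired analysis was possible because the labels give no replicate numbers; transfection was a term of the model. Levels near background limit the folds, and 1 culture per line and transfection limits the tests.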

Other observations

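Developmental signalling genes were called singly rather than as groups. SFRP1, a secreted Wnt antagonist, read 7.03 and 7.18 in T98G and 4.61 to 4.84 on the other arrays (adjusted p = 0.00489 in limma), whereas the receptor FZD6 read 5.62 and 5.27 in T98G, 9.13 and 8.88 in A172, and 8.34 and 7.48 in U87MG (adjusted p = 0.0437). With WNT5B (1.24), 2 of 35 Wnt genes were higher and 1 lower, against 2.39% and 2.29% of all genes. Of 33 TGF-beta and BMP genes 1 was higher, BMP7 (1.96), and 1 lower, its target ID2 (-1.39), against 2.39% and 2.29% of all genes. Of the 33, 6 were higher and 6 lower than both lines, against 12.0% and 11.6%. CDON, a Hedgehog co-receptor, was higher by 1.98, the growth factors MDK, midkine, and NRG1 were higher by 2.22 and 1.25, and FGF5, near background in T98G, was lower at least 3.95-fold. The receptor kinases DDR2 and FGFR1 were lower by 1.65 and 0.99, HOXB2 by 2.06 and PBX3, a HOX partner, by 2.35.

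TRPA1, a cation channel, read 5.93 and 5.63 in T98G and 2.23 to 2.75 elsewhere, and MTAP, of methionine salvage, read 5.47 and 5.58 in T98G and at most 3.61 elsewhere; both lay under the filter on dim genes, with adjusted p = 0.00623 and 0.0117 in limma without it.

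In metabolism and cell death, TDO2, which opens the kynurenine pathway, was lower by 1.96, the 1 call among 11 genes of that pathway and AHR, and CFLAR, the inhibitor of caspase-8, was lower by 1.87 (4.72 and 4.97 in T98G, 6.52 to 6.80 elsewhere; adjusted p = 0.00752 in limma). KCNN4, a calcium-activated potassium channel, was lower by 1.23. Of 10 tested neuronal markers MAP2 was higher (2.63) and 0 lower, against 2.39% and 2.29% of all genes. The mean level of 19 such markers was 4.57 on both T98G arrays, 4.88 and 4.89 in A172, and 4.66 and 4.63 in U87MG. CLDN11, of the oligodendrocyte list, was higher by 1.31. With the line as a random block PBX3 kept its call (adjusted p = 0.0433), and the other called genes of these paragraphs lost theirs. In 13 of the 52 lists limma passed 0 genes. These lists were grouped by having no call, so 0 of their 173 tested members follows from the choice. At an unadjusted p under 0.05 limma passed 20 of the 173, against 20.5% of all genes, and the choice lowers that count too. Among these lists were Notch (21 tested), ephrins, semaphorins and guidance (37), glial identity (15), DNA methylation enzymes (15) and cancer-testis antigens (7).

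Among windows of 15 neighbouring genes the lowest median was -0.78, from ICA1L to ZDBF2, where 9 genes were lower than both lines and 0 passed the main limma test.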
